A study of Homo sapiens with 12 samples.

Results

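KDM2B binding at 5 histone acetyltransferase genes was examined in 7 leukaemia cell lines: KAT6B, KAT6A, EP300, CREBBP and KAT2A. Each gene was given a window in hg19, and every KDM2B peak that overlapped a window by at least 1 bp was taken, 57 of 79473 peaks in all. Merged across lines, these peaks formed 11 of the 29071 peak regions of the series. KAT6B was chosen by measured values, because a region in its window ranked among the sites with the highest scores common to all lines; the other genes were added as enzymes of the same kind. The lines were DND41, HPB-ALL, JURKAT and SIL-ALL, all from T-cell acute lymphoblastic leukaemia (T-ALL), and K562 (chronic myeloid leukaemia), REH and SUP-B15 (both B-cell precursor leukaemia), here called the other lines. All were untreated cultures grown in IMDM with serum, with chromatin immunoprecipitated by a KDM2B antibody and sequenced (ChIP-seq). Every line had 1 library and 1 peak list, so lines were the units of comparison, and a difference between lines cannot be told apart from a difference between libraries.

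Histone acetyltransferases transfer acetyl groups to lysines of histone tails, a modification typical of active promoters and enhancers. KAT6B (MORF) and KAT6A (MOZ) are paralogous MYST-family enzymes that work in complexes with BRPF proteins; KAT6A sustains haematopoietic stem cells and is a partner in leukaemia fusions. EP300 and CREBBP are paralogous coactivators that acetylate histone H3 at enhancers, and CREBBP is mutated in lymphoid malignancies. KAT2A (GCN5) is the catalytic subunit of the SAGA and ATAC complexes. KDM2B recognises unmethylated CG dinucleotides through its CXXC zinc finger and recruits a variant Polycomb complex to CpG islands.

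Because KDM2B reads CG dinucleotides, the reference promoters of the members are shown with each CG in capitals, as the 250 bases before the most upstream annotated start, 5′ to 3′ on the strand of the gene (RefSeq, GRCh38.p14, whereas the peaks are placed on hg19). They lie at chr10:74825005-74825254 (KAT6B, plus strand), chr22:41092342-41092591 (EP300, plus strand), chr16:3880714-3880963 (CREBBP, minus strand) and chr17:42121368-42121617 (KAT2A, minus strand).
KAT6B: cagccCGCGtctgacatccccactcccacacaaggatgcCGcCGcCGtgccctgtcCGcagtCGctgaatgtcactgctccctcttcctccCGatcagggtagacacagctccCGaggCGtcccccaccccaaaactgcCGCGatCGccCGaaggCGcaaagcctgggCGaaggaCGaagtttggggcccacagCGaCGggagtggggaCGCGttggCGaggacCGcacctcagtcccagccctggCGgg
EP300: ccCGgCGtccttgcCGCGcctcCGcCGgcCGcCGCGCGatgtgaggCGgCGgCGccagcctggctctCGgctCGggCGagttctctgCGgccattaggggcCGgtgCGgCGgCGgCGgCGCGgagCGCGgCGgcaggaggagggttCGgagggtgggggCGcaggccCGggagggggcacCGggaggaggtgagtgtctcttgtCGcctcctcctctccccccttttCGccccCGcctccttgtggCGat
CREBBP: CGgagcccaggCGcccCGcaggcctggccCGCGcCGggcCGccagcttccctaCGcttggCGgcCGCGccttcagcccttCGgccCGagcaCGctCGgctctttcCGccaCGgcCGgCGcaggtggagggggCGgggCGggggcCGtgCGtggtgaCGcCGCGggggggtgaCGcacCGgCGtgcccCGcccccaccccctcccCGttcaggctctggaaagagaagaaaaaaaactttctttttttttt
KAT2A: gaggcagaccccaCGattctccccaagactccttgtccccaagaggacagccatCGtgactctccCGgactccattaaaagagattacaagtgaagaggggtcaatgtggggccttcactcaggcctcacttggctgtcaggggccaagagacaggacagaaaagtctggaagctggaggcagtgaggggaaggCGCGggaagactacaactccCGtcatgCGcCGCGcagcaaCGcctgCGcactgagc

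The promoters of EP300 and CREBBP held the most CGs, although CREBBP had none in the 44 bases next to its start, that of KAT6B held fewer, and that of KAT2A held most of its CGs close to the start. With the 50 bases after the start included (300 bases), there were 29 CGs at KAT6B, 40 at EP300, 36 at CREBBP and 18 at KAT2A. The median over the 35116 promoters of the table was 14, and 96.0% of them held at least 1 CG. KAT6B thus stood at percentile 77.6 of CG number, EP300 at 93.3, CREBBP at 88.7 and KAT2A at 57.1. KAT6B had 2 further annotated starts downstream, with 35 and 15 CGs, and CREBBP had 1, with 50. The ratio of observed to expected CG, which corrects for base composition, was 0.845 at KAT6B, 0.967 at EP300, 0.972 at CREBBP and 0.6246 at KAT2A, against a median of 0.579 over all promoters. All 4 members matched had a ratio over 0.6 at the most upstream start. The share was 48.8% over all promoters, which count further starts of a gene separately. Of 20 further acetyltransferases and MYST partners listed, 18 were matched. At the most upstream start, 17 of these 18 had a ratio over 0.6. CG numbers there ran from 6 at JADE2, a scaffold of the KAT7 complex, to 55 at NCOA1, a nuclear receptor coactivator. Further starts of JADE2 held 5 to 37 CGs, and those of NCOA1 held 31 and 0. The peaks of these 18 genes were not determined.

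**Figure D1:**
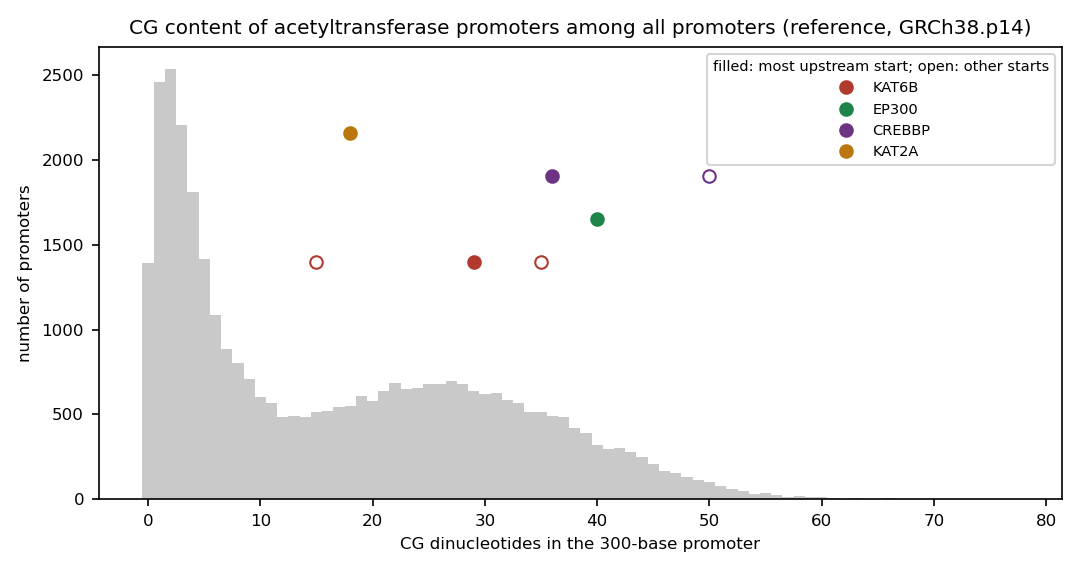
CG dinucleotides per 300-base reference promoter (x axis) and number of promoters (y axis, grey bars, 35116 promoters); the height of the coloured points has no meaning. At the most upstream start EP300 (40 CGs) and CREBBP (36) lie in the CG-rich part of the distribution, KAT6B at 29 and KAT2A at 18.

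Peaks at these genes were concentrated at the end of the window where the gene starts. Of the 57 peaks, 56 lay within 10 kb of the start-side edge of their window, between 2.86 and 6.82 kb from it. The windows were 8.31 to 10.5 kb longer than the genes in the GRCh38.p14 annotation, so each window held the gene and some flanking sequence; the exact hg19 starts were not used here. The first 10 kb of the 5 windows held 1120 peaks per Mb summed over the lists, the other 579 kb held 1.73 per Mb (1 peak), and the genome as a whole 25.7 per Mb. Peaks covered 0.861% of the 5 windows in DND41, 0.8286% in HPB-ALL, 0.794% in JURKAT, 1.09% in SIL-ALL, 0.688% in SUP-B15, 0.25% in REH and 0.691% in K562. The same lists covered between 0.157% (SIL-ALL) and 0.0678% (REH) of hg19, and the share in the windows was between 6.94 (SIL-ALL) and 3.68 (REH) times as high. Since KAT6B was chosen for its peaks, these ratios describe the windows and test nothing.

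Regions with a peak of every line were 3 of the 11 at these genes (1 each at KAT6B, KAT6A and EP300), and they made up 2.44% of all regions of the series. The KAT6B region was chosen as a site common to all lines, so it is no evidence here. Without it the count was 2 of 10. This too is only a description, because the genes were chosen with earlier results of these data known. Regions of 1 line alone were 5 of the 11, against 58.2% of all regions. The number of lines with any peak in the window was 7 for KAT6B, KAT6A and EP300, 6 for CREBBP and 1 for KAT2A.

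**Figure D2:**
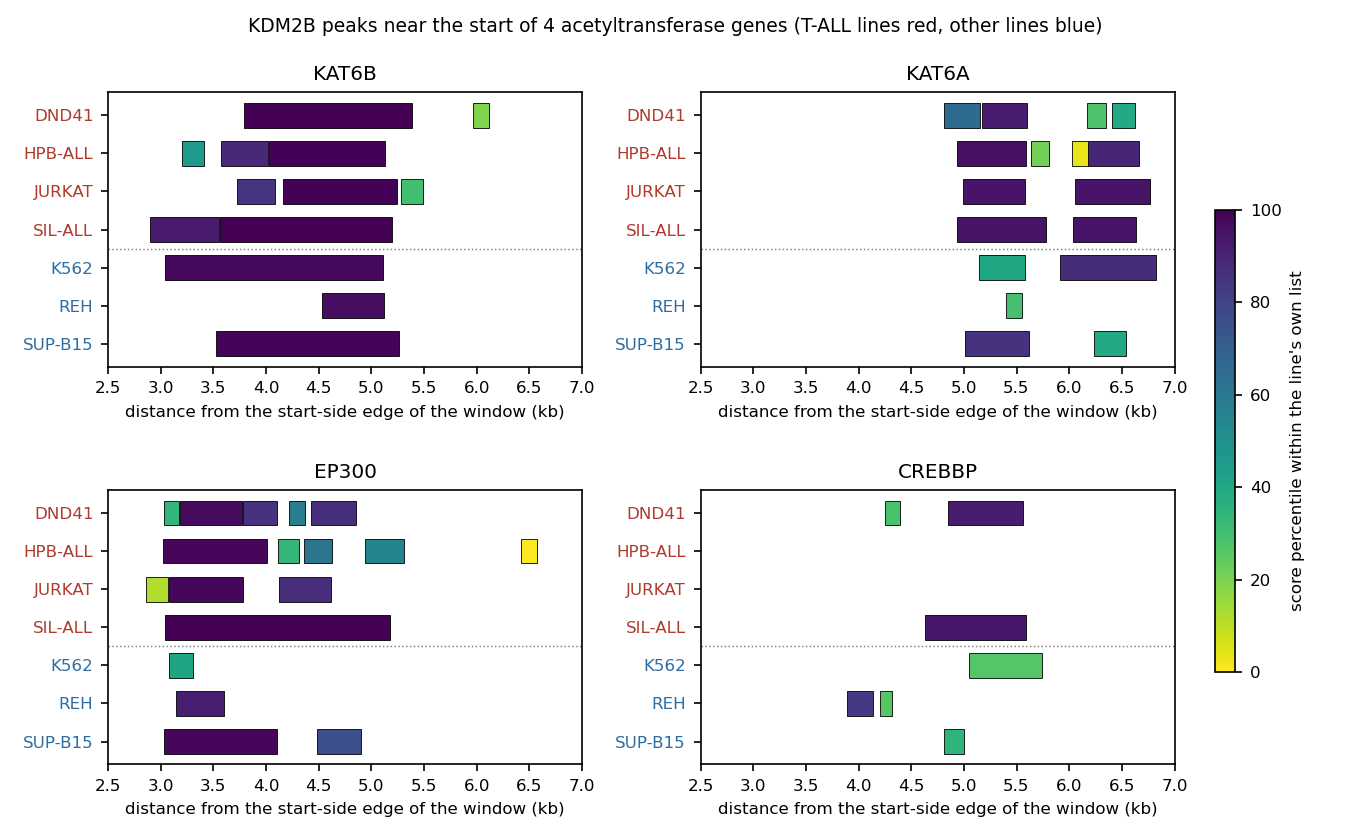
KDM2B peaks of each line near the start of 4 genes. The x axis is the distance from the start-side edge of the window in kb, each row is a line (T-ALL lines above the dotted line), each bar is a peak, and its colour is the score percentile within that line's list. KAT6B has a high-percentile peak in every row, KAT6A a pair of neighbouring sites, EP300 a site that narrows to 229 bp in K562, and CREBBP scattered peaks with none in HPB-ALL; the JURKAT peak of CREBBP lies 95.1 kb from the edge, outside the range drawn.

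KAT6B carried the highest-ranked site of the group in every line. The window was 76581000 to 76797000 on chromosome 10 (hg19, band 10q22.2), and the all-line region covered 76583895 to 76586486, 2.90 to 5.49 kb inside the start-side edge. The score is a value of the authors' peak caller that was used only to rank or filter peaks. For the best peak it was 2872 in SIL-ALL, 915 in JURKAT, 1619 in HPB-ALL and 2177 in DND41. It was 623 in SUP-B15, 216 in REH and 571 in K562. Within the lists these peaks held rank 18 of 15304 in SIL-ALL, 66 of 14839 in JURKAT, 54 of 12765 in HPB-ALL and 14 of 14944 in DND41, and rank 60 of 7533 in SUP-B15, 274 of 8146 in REH and 128 of 5942 in K562. The lowest percentile was thus 96.6, in REH. These ranks were what the gene was chosen by: the region stood 5th by mean percentile (98.95) among 709 all-line regions, after one in 1q25.3 (99.3) and before one in 19q13.42 (98.9).

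The KAT6B peaks were also wide, which the choice did not use. The best peak measured 1637 bp in SIL-ALL, 1085 bp in JURKAT, 1107 bp in HPB-ALL and 1594 bp in DND41, against 1737 bp in SUP-B15, 590 bp in REH and 2073 bp in K562. It was among the widest few percent of its list everywhere, with width percentiles between 99.5 in DND41 and 96.7 in REH. Width and score come from the same reads, so the 2 measures are not independent. The T-ALL mean was 1356 ± 301 bp (SD, n = 4) and the mean of the other lines 1467 ± 778 bp (SD, n = 3). The ranges overlapped, and the direction rested on single lines: the difference of -110.9 bp became 192 bp without K562, 24.25 bp without SUP-B15 and -549 bp without REH. REH had the narrowest peak, at the end of the site farthest from the window edge.

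Every line's peak shared a stretch of 579 bp at KAT6B, from 76585532 to 76586110 on chromosome 10. Among the 709 all-line regions, 406 had any base under the peaks of all lines, the median was 57 bp, and the KAT6B stretch stood at percentile 96.1. The region was chosen by its score ranks, and the stretch depends on peak widths, which are not independent of score. Its percentile is therefore only a description. Beyond this stretch the lines differed in where the first listed peak of the region began. It began at 76583895 in SIL-ALL, 76584205 in HPB-ALL, 76584720 in JURKAT and 76584792 in DND41, against 76584038 in K562, 76584523 in SUP-B15 and 76585532 in REH. Depth and the cut-off of the peak caller are unknown, so these positions do not measure how far binding reached. DND41 alone had a further small peak, 149 bp wide with a score of 68.2, at 76586966 to 76587114. No line had a peak in the remaining stretch of the window, which spans the rest of the gene, and the nearest peak outside it was 25.2 kb away on the start side and 74.3 kb away on the far side in any list.

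The all-line regions most like the KAT6B site, by the mean absolute difference of the best-peak percentiles over the 7 lines, lay in 1q25.3 (chromosome 1, 181057490 to 181059681; difference 0.365 percentile points), 2p23.2 (chromosome 2, 28612728 to 28616994; 0.475) and 19q13.42 (chromosome 19, 55987767 to 55988885; 0.797). The first 2 shared with KAT6B a higher percentile in every T-ALL line than in K562 or REH: the 2p23.2 region stood at 99.8 in DND41 and 96.3 in K562, and the 1q25.3 region at 99.7 in DND41 and 98.4 in K562. The regions were picked by these same percentiles, so this likeness follows largely from the choice. T-ALL lists were longer, so percentiles of different lists do not compare the strength of binding.

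KAT6A, the paralogue, carried a pair of neighbouring sites of lower rank. Its window was 41782000 to 41915000 on chromosome 8 (hg19, 8p11.21), and the gene starts at the high-coordinate end. The site nearer to the edge, 41909189 to 41910184, had a peak in all 7 lines and 152 bp common to all. The second site, 41908179 to 41909090, had a peak in 6 lines and none in REH. The longest peak-free gap between or within them was 250 bp in SIL-ALL, 474 bp in JURKAT, 214 bp in HPB-ALL and 565 bp in DND41, against 325 bp in K562 and 622 bp in SUP-B15. Every line with both sites had an unlisted stretch between its peaks, which follows from the sites being separate merged regions.

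The balance of the KAT6A sites differed between lines. The best score at the site nearer to the edge was 740 in SIL-ALL, 292 in JURKAT, 680 in HPB-ALL and 330 in DND41, against 153 in SUP-B15, 57.5 in REH and 75.0 in K562. At the second site it was 704 in SIL-ALL, 289.5 in JURKAT, 390 in HPB-ALL and 83.6 in DND41, against 232 in K562 and 67.4 in SUP-B15. K562 was the only line whose second site scored higher than its first; the comparison is within a list. The best KAT6A peak of each list stood at percentile 95.2 in SIL-ALL, 94.6 in JURKAT, 95.9 in HPB-ALL and 92.0 in DND41, against 85.6 in SUP-B15, 29.4 in REH and 87.6 in K562. REH was low, with a single peak of 152 bp.

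EP300 varied widely between lines. Its window was 41484000 to 41581000 on chromosome 22 (hg19, 22q13.2), and the all-line region covered 41486860 to 41489314. SIL-ALL had 1 peak of 2136 bp there, at rank 29 of its list with a score of 2326. The other T-ALL lists divided the site into several peaks: 5 in DND41 (best score 590), 4 in HPB-ALL (965) and 3 in JURKAT (537). SUP-B15 had 2 peaks (best score 454), REH 1 peak of 458 bp (150) and K562 1 peak of 229 bp (76.0). The best peak stood at percentile 99.8 in SIL-ALL, 98.4 in JURKAT, 98.1 in HPB-ALL and 97.1 in DND41, against 98.3 in SUP-B15, 91.8 in REH and 41.6 in K562. SUP-B15 lay within the range of the T-ALL lines, and K562 far below it, although K562 peaks are the widest of the series, with a median of 552 bp.

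The stretch of EP300 common to all lines was short, with 166 bases between 41487142 and 41487308. It lay at the end of the region nearest to the window edge, and the peaks of K562 and REH did not reach beyond 41487599. HPB-ALL alone had a further peak at 41490419 to 41490569, with a score of 80.1, near the lowest score of its list (80). By mean percentile (89.3) the EP300 region ranked 142 of the 709 all-line regions, and the KAT6A region (76.2) 432 of 709.

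CREBBP, the paralogue of EP300, had no base in common among its lines. Its window was 3770000 to 3935000 on chromosome 16 (hg19, 16p13.3), with the start at the high-coordinate end. A region at 3929258 to 3930365 held peaks of DND41 (score 341, 715 bp) and SIL-ALL (653, 953 bp), and of K562 (63.5, 695 bp) and SUP-B15 (64.6, 193 bp). The SUP-B15 peak began at 3930001, after the K562 peak had ended at 3929952. REH had peaks elsewhere, at 3930682 to 3930799 (score 56.4) and at 3930860 to 3931111 (109), and a small DND41 peak at 3930602 to 3930744 (74.1) overlapped the first of these. JURKAT had no peak near the start and 1 of 482 bp inside the gene window, at 3839466 to 3839947, with a score of 199 and percentile 89.3, the only one of the 57 more than 10 kb from the start-side edge. HPB-ALL had none. HPB-ALL was also low over the whole arm: 1.31% of its list lay on 16p, where the median line had 2.78%, and the part of this in the missing CREBBP peak was not tested.

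KAT2A had 1 peak in 1 line. In JURKAT a peak of 138 bp lay at 40272972 to 40273109 on chromosome 17 (hg19, 17q21.2; window 40260000 to 40278000), with a score of 52.5 and rank 14086 of 14839. This is close to the lowest score of that list (50.01). It is under those of the DND41 (60), HPB-ALL (80) and SIL-ALL (80.03) lists, so a peak of this score would not have been listed there. The lists of K562 (lowest score 50), REH (50.01) and SUP-B15 (50) reached low enough to hold such a score. No KAT2A peak was listed in the other lines, which at unknown sequencing depth does not show that KDM2B was absent.

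**Figure D3:**
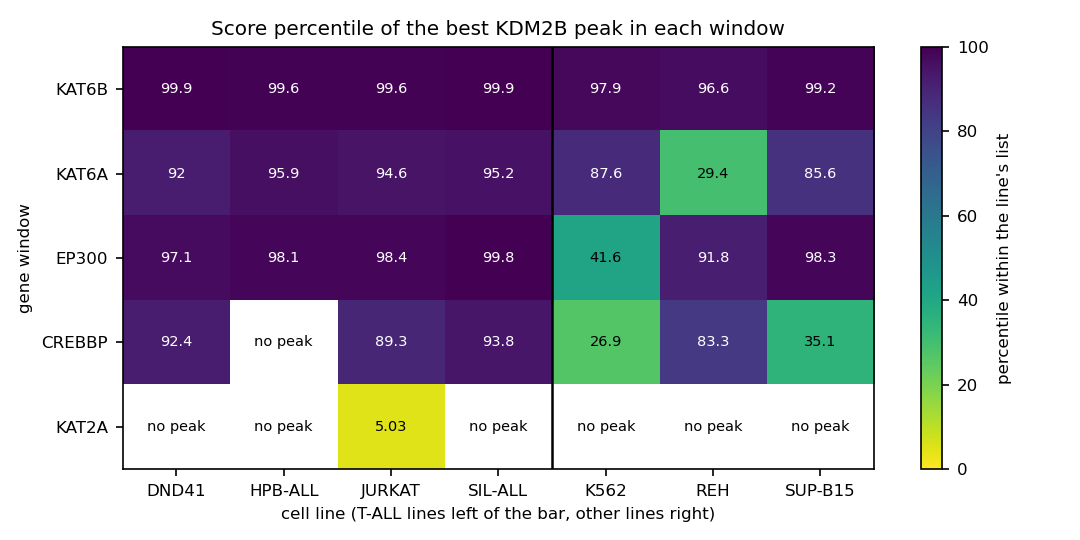
Score percentile of the best peak in each gene window (rows) and line (columns; T-ALL lines left of the bar), where 100 is the highest score of that line's list and white cells have no peak. KAT6B is at 96.6 or above in every column, whereas KAT6A in REH (29.4), EP300 in K562 (41.6) and CREBBP in K562 (26.9) and SUP-B15 (35.1) are low.

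KAT6B ranked first of the 5 genes in every list. KAT6B had a higher best percentile than KAT6A in 7 of 7 lines and more covered bases in 7 of 7. EP300 stood above CREBBP in percentile in 7 of 7 lines, counting HPB-ALL, which has no CREBBP peak, and had more covered bases in 6, with K562 the exception. EP300 stood above KAT6A in 6 of 7 lines, again with K562 as the exception. KAT6B stood above EP300 in 7 of 7 lines by percentile and in 6 by covered bases, with HPB-ALL as the exception. No test was made of these orders, since KAT6B was chosen for its rank.

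A common score cut assumes that scores of different lists are comparable, which was not tested. The lists had different lowest scores, between 80.03 in SIL-ALL and 50 in K562. With only peaks at or above the highest of these, 80.03, KAT6B had a peak in 7 lines, KAT6A in 6 (not REH), EP300 in 6 (not K562), CREBBP in 4 (neither K562 nor SUP-B15, and still not HPB-ALL) and KAT2A in 0.

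The T-ALL lines had more peaks at KAT6B than the other lines, whereas their higher mean of covered bases did not pass the threshold. The window held 2 peaks in SIL-ALL, 3 in JURKAT, 3 in HPB-ALL and 2 in DND41, against 1 each in K562, REH and SUP-B15. The difference of 1.5 peaks gave p = 0.0286 in a two-sided exact permutation test (35 assignments of the lines), the smallest value possible, in a family of 10 such tests (peaks and covered bases at 5 genes) of which no other passed 0.05. When peaks of a list up to 500 bp apart were joined, the difference was 0.25 peaks (exact permutation p = 1), and with every list cut to the length of the shortest it was 0.75 peaks (exact permutation p = 0.143). Covered bases at KAT6B were 2296 in SIL-ALL, 1661 in JURKAT, 1763 in HPB-ALL and 1743 in DND41, against 1737 in SUP-B15, 590 in REH and 2073 in K562. The T-ALL mean was 1866 ± 290.2 (SD, n = 4) and that of the remaining lines 1467 ± 778 (SD, n = 3), with an exact permutation p of 0.429, and without REH the difference of 399 bases became -39.25.

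At EP300 and KAT6A the T-ALL lines had more covered bases on average, short of the threshold. EP300 had 2136 bases in SIL-ALL, 1415 in JURKAT, 1985 in HPB-ALL and 1644 in DND41, against 1483 in SUP-B15, 458 in REH and 229 in K562. Only JURKAT and SUP-B15 overlapped, and the difference of 1072 bases (means 1795 ± 326, n = 4, and 723 ± 668, n = 3) gave an exact permutation p of 0.0571. With every list cut to the length of the shortest, the EP300 difference was 854 bases (exact permutation p = 0.143). KAT6A had 1452 bases in SIL-ALL, 1301 in JURKAT, 1464 in HPB-ALL and 1171 in DND41, against 916 in SUP-B15, 152 in REH and 1352 in K562. Here K562 lay among the T-ALL lines, and the difference of 540.3 bases gave an exact permutation p of 0.0857. With the common lowest score it was 794 bases (exact permutation p = 0.0286). With every list cut to the length of the shortest it was 357 (exact permutation p = 0.4), and without REH it was 213.

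At CREBBP and KAT2A the groups overlapped and no difference passed the threshold. CREBBP had 953 covered bases in SIL-ALL, 482 in JURKAT, 0 in HPB-ALL and 858 in DND41, against 193 in SUP-B15, 370 in REH and 695 in K562 (exact permutation p = 0.629). KAT2A had 138 bases in JURKAT and 0 in all other lines (exact permutation p = 1).

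Set against every region of the series by the same exact permutation test on covered bases, 2.52% of the 29071 regions had more covered bases in T-ALL lines at an unadjusted p under 0.05 and 0.392% had fewer. None of the 11 member regions was among either. With 35 assignments of the lines no region could pass the Benjamini-Hochberg adjustment over all regions: 0 did, the smallest adjusted exact permutation p was 0.914, and 734 and 114 regions were under 0.05 unadjusted. The T-ALL lists held 12765 to 15304 peaks and the others 5942 to 8146. With every list cut to its 5942 top-scored peaks, 228 regions had more and 134 fewer covered bases in T-ALL lines at that level, so regions higher in T-ALL made up 63.0% of those under 0.05, against 86.6% with the full lists.

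**Figure D4:**
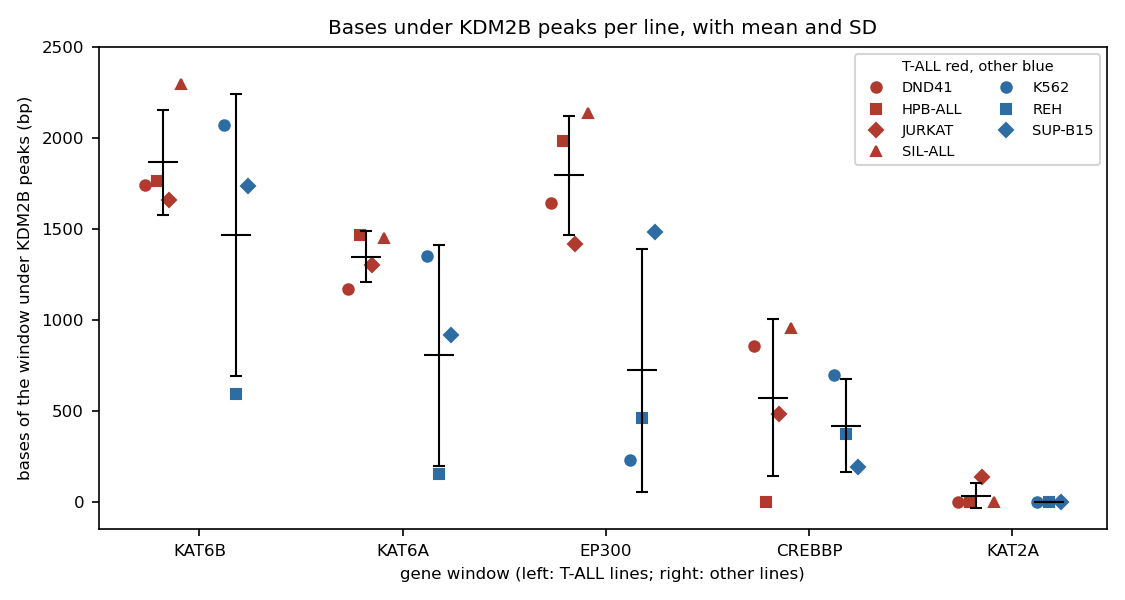
Bases of each gene window under KDM2B peaks (y axis, bp) in each line (points; T-ALL lines in red on the left of each pair, other lines in blue on the right), with the mean and SD of each side in black. At EP300 only SUP-B15 (1483 bp) reaches the T-ALL range of 1415 to 2136 bp, and REH is lowest at KAT6B (590 bp) and KAT6A (152 bp).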

How the data were processed

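Of the 12 libraries, 7 KDM2B peak lists were used; the 5 input libraries were not analysed here. The submitters' processing notes name FastQC 0.10.1, Bowtie 1.1.1 and the build hg19. Peak names in the files carry the name MACS; its version, control and cut-off: not given in the sources used here. The score of each peak is the authors' own deposited value, with no unit stated, and served only to rank or filter peaks. Depth per library is unknown, so no interval for a peak's presence was computed.

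The gene windows, members and lists were chosen with earlier results of these data known. Percentile is the rank of a score within its list. Overlapping peaks (1 bp or more) of any lists formed a region. Lineage is background knowledge, not in the labels. T-ALL and other lines were compared by exact permutation over 35 assignments, two-sided on the difference of means; p-values reflect the spread between lines and libraries together. No p was adjusted over the 10 gene tests alone, although that adjustment had been planned, because the genes were chosen with results known. Region tests were adjusted over all 29071 regions. The counting was checked on lists made with known answers.

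Coordinates are hg19, counted from 1. Without an hg19 annotation or sequence, distances are to window edges. Promoter sequences, gene lengths and strands come from RefSeq (GRCh38.p14), the strand of KAT6A from background knowledge, and its promoter is not among those shown. Bands come from circlize 0.4.16 and chromosome lengths from GenomeInfoDb 1.38.1. CG dinucleotides were counted as the letters CG, which read alike on both strands. All peaks in the windows were reported; similar regions were the 3 all-line regions with the nearest percentiles. Alternatives were equal lists, score cuts, merging within 500 bp, midpoint assignment, windows changed by 5 kb, 50% reciprocal overlap, B-ALL lines only as comparators and each line left out. Computations used Python 3.11.15, numpy 2.4.6 and pandas 2.3.3.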

Additional observations from a re-analysis of the deposited data

Results flagged for a closer look

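Peak number, covered bases and best percentile per gene gave 14 sets of values over 7 lines (6 where a line had no peak). In 6 of the 14 sets 1 line stood far from the others by Dixon's outlier rule. The 0.7 sets given by chance assume independent, normally spread values. Tied counts, zeros and bounded percentiles are not such values, and the measures of a gene share their peaks, so no excess is shown. REH had 590 covered bases at KAT6B, next to 1661 in JURKAT. At KAT6A, REH had 152 covered bases (next 916 in SUP-B15) and a best percentile of 29.4 (next 85.6 in SUP-B15). K562 had a best percentile of 41.6 at EP300, next to 91.8 in REH. JURKAT was the only line with a KAT2A peak, 1 peak of 138 covered bases, so it was set apart from zeros. REH had the smallest covered share of hg19 of the lists (0.0678%), and its part in these values was not tested.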

How the results depend on the processing

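No paired analysis was possible because a line contributed only 1 library. Over the 10 tested differences, 150 alternative values included 6 of opposite sign, 10 at 0, 13 that lost the KAT6B call and 3 that passed 0.05 anew; sizes also moved without a change of call, as at EP300, where 1072 covered bases were 161.5 with the narrowed window, and KAT6A, where 1.33 peaks were 0.33 with equal lists. The KAT6B peak difference of 1.5 was 0.75 with equal lists and with the median score of each list as a cut, 1 with the common lowest score, 0.25 with merging within 500 bp and 0.5 with the window narrowed by 5 kb, and stayed at 1.5 with T-ALL against B-ALL, all with an exact permutation p above 0.05; for the last, and with a line left out (1.33 to 1.67), the smallest p allowed is above 0.05. KAT6A passed 0.05 in peaks with that median cut (1.33) and the common lowest score (2.08), and in covered bases with that lowest score (794). Its peak difference turned to -0.0833 with merging. That of CREBBP, -0.333, turned to 0.417 with that median cut, the common lowest score and the narrowed window, and to 1.42 with the widened window, which took in peaks beyond the gene's far end. With lines left out, the KAT6B difference ranged from -39.25 to 702 covered bases and that of its peak width from -549 to 192 bp.

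Lines with a KAT2A peak were 0 with equal lists and both score cuts, and 0 to 1 with lines left out. The narrowed window left EP300 in 2 lines, since its peaks lie close to the edge. With 50% reciprocal overlap with the K562 peak, 5 lines were left at KAT6B, 4 at KAT6A, 1 at EP300 and 3 at CREBBP. T-ALL higher regions, 734 with the full lists, were 228 with equal lists and 410 with that median cut, and T-ALL lower regions, 114 with the full lists, were 134 with equal lists and 66 with the common lowest score. Both were 0 with T-ALL against B-ALL and with each line left out, where no p can reach 0.05. KAT2A had 11 CGs in the 250 bases before its start in place of 18 in 300. Peak calls give no depth, so a missing peak is no measure of absence.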

Other observations

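Beyond the far end of the CREBBP window, 3 T-ALL lines had small peaks that no other line had. They lay 2.23 to 2.93 kb outside the window, with 2 peaks in DND41 (best score 108, percentile 56.9), 2 in JURKAT (103, percentile 67.0) and 3 in SIL-ALL (173, percentile 62.0). They spanned 3766804 to 3767768 on chromosome 16 (hg19). In the GRCh38.p14 annotation the next protein-coding gene on that side is TRAP1, a mitochondrial chaperone of the HSP90 family. HPB-ALL, K562, REH and SUP-B15 had their nearest peak on that side 262 kb or more from the window. The gene was looked up after these peaks were seen. T-ALL lists were longer than the others, and the share of all regions found only in T-ALL lines was not determined. The absence from the other lists is therefore only a description.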
